A study of Mus musculus with 40 samples.

Results

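Fli1, Erg, Gata2, Tal1, Lyl1 and Lmo2 encode 6 of the transcription factors that, with Runx1, form the stem cell heptad. Their loci were described here through the histone marks H3K27ac and H3K4me1 in sorted haematopoietic stem and progenitor cells (HSCs and HPCs in the labels) of mice. A peak belonged to one of the 6 genes if it overlapped the gene body, or if the nearest start site of a protein-coding gene was that gene's and lay within 50 kb. By this rule 1597 of the 773134 deposited peaks belonged to the 6 genes, 480 of 224171 for H3K27ac and 1117 of 548963 for H3K4me1. Overlapping peaks were merged over the genotypes of a mark, which left 124 of 71518 H3K27ac regions (41 at Fli1, 43 at Erg, 11 at Gata2, 4 at Tal1, 1 at Lyl1 and 24 at Lmo2) and 227 of 181776 H3K4me1 regions (60, 62, 31, 18, 5 and 51 in the same order).

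The marks were profiled by ChIPmentation, in which Tn5 transposase adds the sequencing adapters to chromatin bound by the antibody. The 6 genotypes, all from mice 21 days old, were wild type, Flt3-ITD (the receptor Flt3 with a tandem duplication inside it), NUP98-HOXD13 (a fusion found in myeloid leukaemia), Runx1-het (the labels join Runxf and Vav and do not spell out the alleles), and the double mutants Flt3-ITD/Runx1-het and Flt3-ITD/NUP98-HOXD13. The labels list 39 samples with a mark in 12 groups, 9 groups of 3 and 3 of 4, and 1 input. They do not state that the samples of a group came from separate animals, nor the promoter behind the NUP98-HOXD13 gene. Each group was deposited as 1 list of peaks pooled over its samples, so the values below have no spread between animals and no test of a difference between genotypes was possible. Each peak carries the authors' fold enrichment over control, which is used here to describe and order peaks within a list, not to compare genotypes. Where 6 values follow each other without names, they stand for wild type, Flt3-ITD, NUP98-HOXD13, Runx1-het, the double mutant with NUP98-HOXD13 and the double mutant with Runx1-het, in this order.

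The heptad factors bind together at many enhancers of blood stem and progenitor cells, including enhancers of their own genes. FLI1 and ERG are ETS factors that recognise a short purine-rich core, GATA2 is a zinc finger factor, TAL1 and LYL1 are basic helix-loop-helix factors that bind E-boxes with E protein partners, and LMO2 binds no DNA but bridges TAL1 or LYL1 to GATA factors through LDB1. H3K27ac marks active promoters and enhancers. H3K4me1 marks enhancers, active or not, and flanks active promoters.

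The lists held 31978 to 43363 H3K27ac peaks and 72682 to 117039 H3K4me1 peaks. Among H3K27ac lists, peaks were most numerous and narrowest in wild type (median 389 bp, against 586 to 888 bp in the mutants), and the Flt3-ITD/Runx1-het H3K4me1 list was the longest and the narrowest of its mark (median 296 bp). Read depth is unknown. Promoter H3K27ac (a peak within 1 kb of a start site) was present for 6 to 8 of 8 stem and progenitor markers in each list, with Kit, Cd34, Flt3, Myb, Cd48 and Spn in all of them. Counts for markers of other cells were 2 to 4 of 8 endothelial genes, 2 to 4 of 8 megakaryocyte genes, 1 or 2 of 8 erythroid, 0 or 1 of 8 mast cell and basophil, 2 or 3 of 8 B cell, 1 or 2 of 8 T and NK cell and 0 of 8 for other organs. Among the endothelial genes, Pecam1 and Emcn were in all 6 lists, Robo4 in 5, Tie1 in 1 and Cdh5, Kdr, Tek and Esam in none. Fewer cells of a type and less of the mark per cell cannot be told apart in such lists. Ddx3y and Uty, genes of the Y chromosome, had promoter H3K27ac peaks in both Runx1-het lists (28.41 and 26.97 with Runx1-het, 19.2 and 22.4 with Flt3-ITD/Runx1-het) and in none of the other 4, so differences of the Runx1-het lists cannot be told apart from a difference in the sex of the mice.

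Promoter H3K27ac of 5 of the 6 genes was present in every list. Fli1, Erg, Tal1, Lyl1 and Lmo2 had it in all 6 genotypes, and Gata2 had it in wild type, NUP98-HOXD13 and Flt3-ITD/NUP98-HOXD13. In the same lists 39.4 to 46.2% of the 21827 protein-coding genes had such a peak. H3K4me1 within 1 kb of a start site was less regular, with 3 of the 6 genes in wild type, 4 with Flt3-ITD, NUP98-HOXD13 and Flt3-ITD/NUP98-HOXD13, 2 with Runx1-het and 5 with Flt3-ITD/Runx1-het. Fli1 had no H3K4me1 peak within 1 kb of its start in any list.

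Each of the 6 genes had at least 1 H3K27ac region in all 6 lists. Of the 124 H3K27ac regions, 17 (13.7%) were in all 6 lists, against 19.3% of all H3K27ac regions, and 57 (46.0%) were in 1 list, against 52.6%. Those 17 were 5 at Fli1, 4 at Erg, 2 at Gata2, 2 at Tal1, 1 at Lyl1 and 3 at Lmo2. With H3K4me1 45 of 227 regions (19.8%) were in all 6 lists, against 9.97% of all H3K4me1 regions. When only peaks with a −log10 q of at least 5 were kept, 13 H3K27ac and 15 H3K4me1 regions were still in all 6 lists. Where a list had to cover 0.5 of a region, 9 and 15 were, and the H3K27ac regions of Fli1 fell from 5 to 1 and those of Tal1 from 2 to 0.

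**Figure D1:**
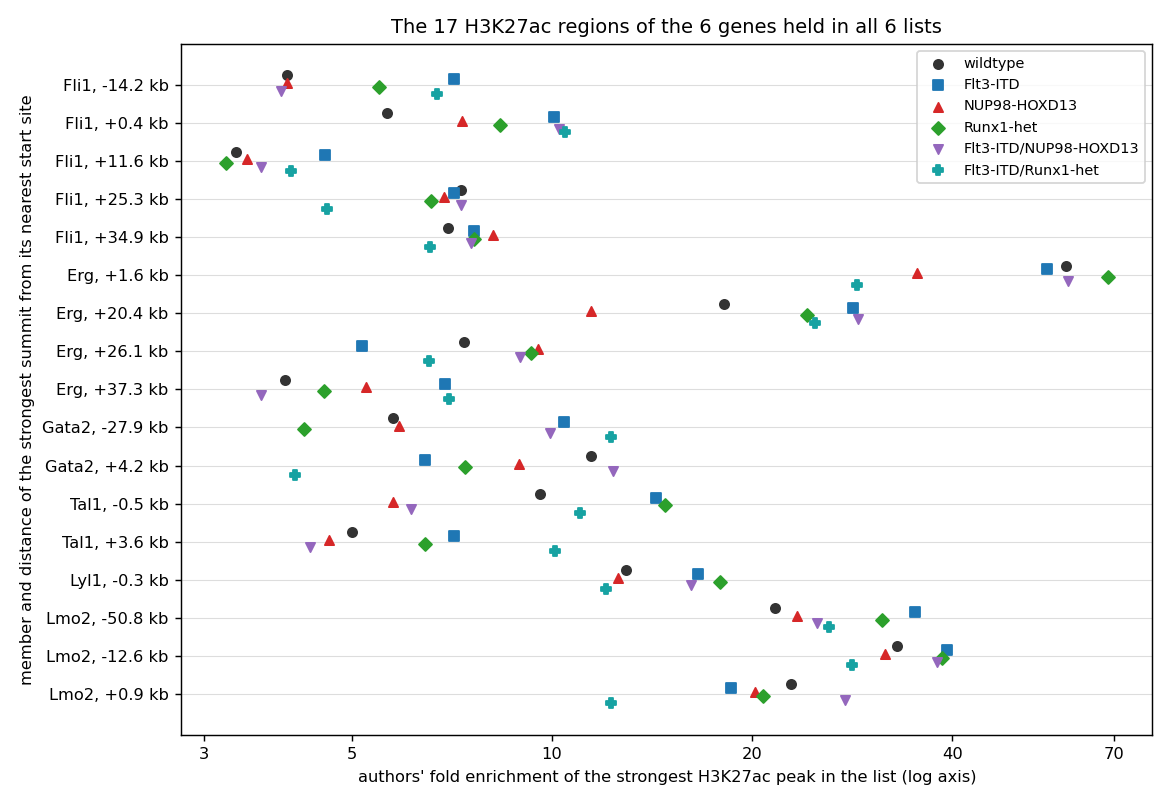
Authors' fold enrichment (log axis) of the strongest H3K27ac peak in each of the 17 regions held in all 6 lists, 1 point per genotype, with regions named by gene and by the distance of the strongest summit from the nearest start site. The points of Erg at +1.6 kb reach 68.6, those of Lmo2 lie between 12.3 and 39.3, and those of Fli1 stay at or below 10.47; the order of regions within a colour is meaningful, the order of colours within a region is not.

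Each mutant was then compared with wild type, and the double mutants with NUP98-HOXD13 or Runx1-het alone, which asks where the cooperating mutations add or remove marked regions. Regions found in the first list and missing from the second were called gained, and regions found in the second alone were called lost. For H3K27ac in Flt3-ITD against wild type, 23 of the 124 regions (18.5%) were gained and 29 (23.4%) lost, where 17.2% and 18.9% of all H3K27ac regions were. NUP98-HOXD13 against wild type gave 20 gained (16.1%, all regions 14.5%) and 32 lost (25.8%, all regions 20.5%). Runx1-het against wild type gave 18 gained (14.5%, all regions 14.0%) and 33 lost (26.6%, all regions 21.3%). These shares were near the background, the lost shares a little above it. The order of losses over gains held under stricter settings in NUP98-HOXD13 (13 gained and 18 lost with lists of equal length, 4 and 7 at a −log10 q of at least 5, 16 and 26 where a list had to cover 0.5 of a region). It turned under all 3 settings in Flt3-ITD (22 and 17, 19 and 4, 35 and 23) and in Runx1-het (21 and 18, 12 and 3, 26 and 23). The share of all regions was not computed under these settings. At the stricter q the lists kept 16327 H3K27ac peaks in wild type, 21195 with Flt3-ITD, 15481 with NUP98-HOXD13 and 21188 with Runx1-het. What part list length had in these orders was not tested.

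Flt3-ITD/NUP98-HOXD13 against wild type gave 21 gained (16.9%, all regions 16.6%) and 30 lost (24.2%, all regions 19.5%). Flt3-ITD/Runx1-het against wild type gave 26 gained (20.97%, all regions 22.3%) and 27 lost (21.8%, all regions 19.2%). Against the single mutant without Flt3-ITD, Flt3-ITD/NUP98-HOXD13 gained 18 (14.5%, all regions 12.9%) and lost 15 (12.1%, all regions 9.79%), and Flt3-ITD/Runx1-het gained 30 (24.2%, all regions 22.8%) and lost 16 (12.9%, all regions 12.4%). With Fli1 left out, a choice made after seeing the data, the remaining 83 regions gave more gains than losses in all 5 mutants: 17 and 13 with Flt3-ITD, 20 and 14 with NUP98-HOXD13, 17 and 15 with Runx1-het, 20 and 12 with Flt3-ITD/NUP98-HOXD13, and 21 and 12 with Flt3-ITD/Runx1-het. Gained shares were 20.5 to 25.3% (all regions 14.0 to 22.3%) and lost shares 14.5 to 18.1% (all regions 18.9 to 21.3%). Fli1 was the gene with the most losses, so leaving it out favours gains. The 3 stricter settings were not combined with leaving out Fli1. With Fli1 kept in, gains outnumbered losses against wild type under those settings in Flt3-ITD/NUP98-HOXD13 (22 and 17, 9 and 5, 29 and 26). The same held in Flt3-ITD/Runx1-het (21 and 20, 14 and 5, 36 and 24). At the stricter q these lists kept 19559 and 18853 H3K27ac peaks, against 16327 in wild type. No share of all regions was computed under those settings. The 5 comparisons with wild type share the wild-type list.

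For H3K4me1 gains outnumbered losses in all 7 comparisons. Flt3-ITD against wild type gained 48 of the 227 regions (21.1%, all regions 22.1%) and lost 20 (8.81%, all regions 12.9%). NUP98-HOXD13 gained 51 (22.5%, all regions 21.4%) and lost 27 (11.9%, all regions 15.3%). Runx1-het gained 39 (17.2%, all regions 15.2%) and lost 23 (10.1%, all regions 15.7%). As with H3K27ac, these shares were near the background. The gained shares lay within 3 percentage points of it, and the lost shares lay a little below it.

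Flt3-ITD/NUP98-HOXD13 against wild type gained 57 H3K4me1 regions (25.1%, all regions 23.2%) and lost 22 (9.69%, all regions 13.2%). Flt3-ITD/Runx1-het gained 64 (28.2%, all regions 30.7%) and lost 21 (9.25%, all regions 14.5%). Against NUP98-HOXD13 the double mutant gained 38 (16.7%, all regions 18.3%) and lost 27 (11.9%, all regions 14.3%), and against Runx1-het it gained 56 (24.7%, all regions 30.2%) and lost 29 (12.8%, all regions 13.6%). In this last comparison losses outnumbered gains when lists were cut to equal length (32 gained, 40 lost) or to a −log10 q of at least 5 (23 and 28). At that q the same happened in NUP98-HOXD13 against wild type (6 gained, 29 lost). The NUP98-HOXD13 list then kept 6884 H3K4me1 peaks, the wild-type list 25000 and the others 19731 to 24055. The share of all regions was not computed at that q, and what part list length had was not tested.

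**Figure D2:**
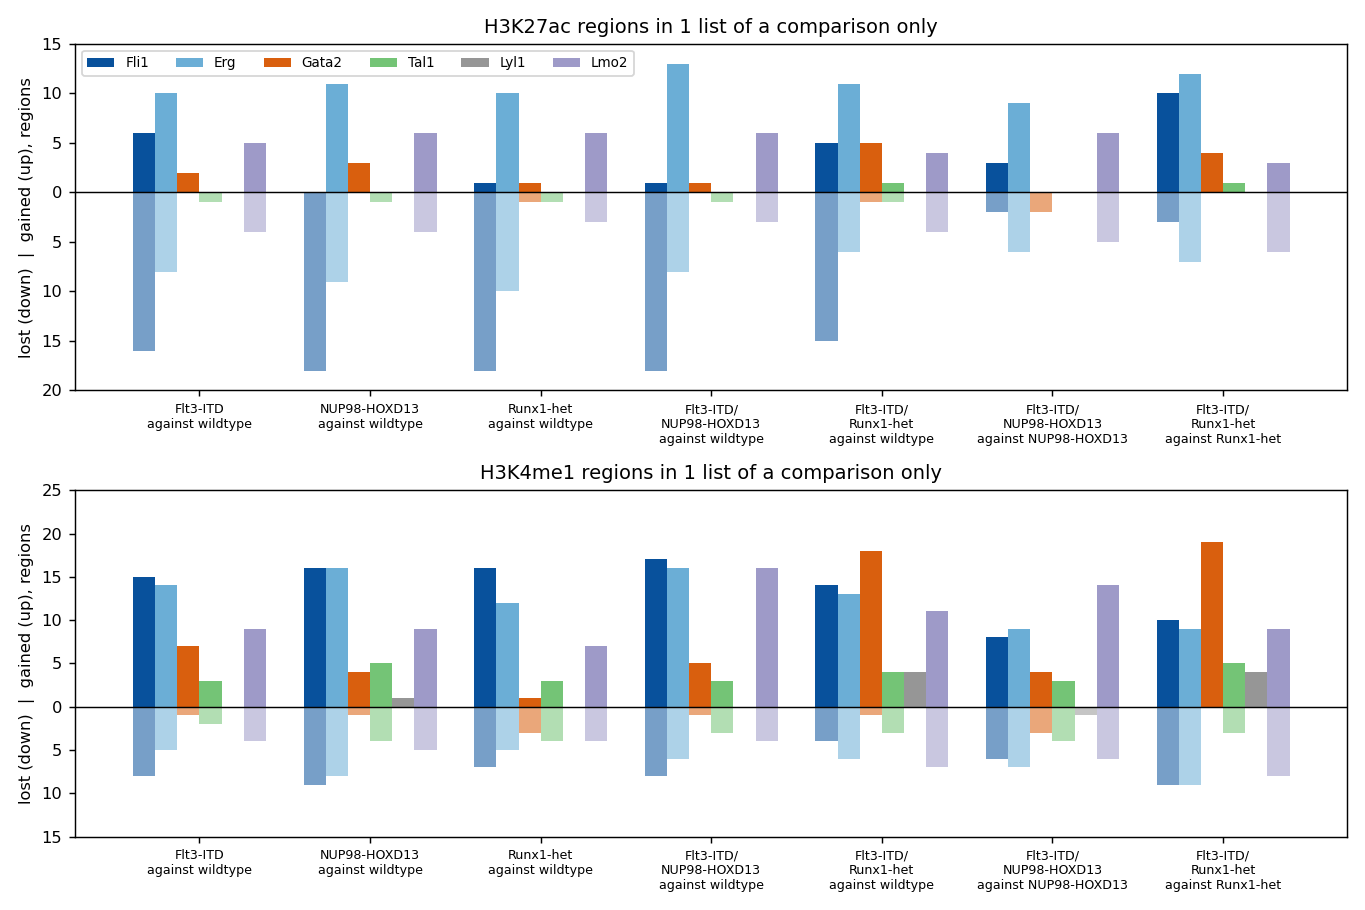
Number of H3K27ac (upper) and H3K4me1 (lower) regions gained (bars up) and lost (paler bars down) at each of the 6 genes in the 7 comparisons. Fli1 shows 15 to 18 H3K27ac losses against wild type in all 5 mutants beside 0 to 6 gains, and Gata2 shows 19 H3K4me1 gains in Flt3-ITD/Runx1-het against Runx1-het.

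Erg, the ETS factor needed for stem cell maintenance, held the strongest acetylation of the 6 genes in each of the 6 lists, ahead of Lmo2 by little in Flt3-ITD/Runx1-het (28.8 against 28.3). The gene lies at chr16:95359169-95586593 (mm10, minus strand) and has 6 annotated start sites, 3 of them far upstream (95524603, 95530365 and 95586593) and 3 clustered inside the gene (95459245 to 95459348). Only the internal cluster was acetylated, and it was acetylated in all 6 lists. The region over it, chr16:95450436-95460620, reached a fold enrichment of 59.3 in wild type, 55.4 with Flt3-ITD, 35.4 with NUP98-HOXD13, 68.65 with Runx1-het, 59.6 with Flt3-ITD/NUP98-HOXD13 and 28.8 with Flt3-ITD/Runx1-het. In each list this was at or above the percentile 99.01 of all its H3K27ac peaks, and the 6 summits fell within 132 bp of each other, about 1.5 kb downstream of the cluster. The distal starts had no H3K27ac peak within 1 kb in any list.

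The bases before the internal start and before the distal start at 95530365 are printed because the first is acetylated in every genotype and the second in none. Both run to the base before the start on the minus strand and contain no annotated exon (GRCm38.p6, RefSeq; chr16:95459349-95459598 and chr16:95530366-95530615). Capitals mark motif letters found on either strand. The letters searched for GATA factors were GATAA. Those searched for ETS factors such as FLI1 and ERG were GGAAG. E-boxes of the kind bound by TAL1 and LYL1 were searched as CAGCTG, and in a separate search with another middle as CAGATG. The letters searched for RUNX factors were TGTGGT. No matches overlapped.
Erg internal promoter: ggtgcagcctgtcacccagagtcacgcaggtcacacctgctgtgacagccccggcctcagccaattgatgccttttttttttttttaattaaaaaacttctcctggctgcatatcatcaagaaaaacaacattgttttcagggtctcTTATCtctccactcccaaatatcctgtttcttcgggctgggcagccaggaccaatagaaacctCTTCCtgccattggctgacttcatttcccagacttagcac
Erg distal promoter: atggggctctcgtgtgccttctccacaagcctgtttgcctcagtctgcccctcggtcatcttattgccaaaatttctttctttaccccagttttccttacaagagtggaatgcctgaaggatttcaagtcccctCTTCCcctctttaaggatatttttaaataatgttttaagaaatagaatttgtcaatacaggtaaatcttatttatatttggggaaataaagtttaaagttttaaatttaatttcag
The internal stretch holds 1 GATA match 103 bases and 1 ETS match 40 bases before the start, and the distal stretch holds 1 ETS match 116 bases before it. Over the first 250 bases of all 32851 promoters in the RefSeq table, 22.6% hold the GATA letters, 64.1% the ETS letters, 13.0% the first E-box, 14.4% the second and 14.0% the RUNX letters. GC content was 47.2% in the internal and 36.0% in the distal stretch.

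Downstream of the internal promoter, Erg carried a chain of intronic regions in all genotypes. The neighbouring region chr16:95435462-95450306 reached 18.2 in wild type, 28.4 with Flt3-ITD, 11.45 with NUP98-HOXD13, 24.2 with Runx1-het, 28.8 with Flt3-ITD/NUP98-HOXD13 and 24.85 with Flt3-ITD/Runx1-het. Its strongest summit stood 20.1 to 20.4 kb from the internal start in 5 lists and at 9.4 kb in NUP98-HOXD13. Counted from the start at 95524603 those 5 summits were at 85.4 to 85.8 kb, beside the position known as the Erg +85 enhancer, a stem cell enhancer bound by the heptad, and NUP98-HOXD13 had a lower summit (10.55) at 84.8 kb. Near the nominal +75 position 4 lists had a summit within 2 kb (8.51 in wild type, 11.45 with NUP98-HOXD13, 12.4 with Runx1-het and 11.5 with Flt3-ITD/Runx1-het). A peak covered that position in all 6 lists, also where no summit lay within 2 kb. The next region, chr16:95430930-95435334, had 7.38, 5.19, 9.52, 9.32, 8.97 and 6.54 in the same order of genotypes. In every list the internal promoter stood first and the neighbouring region second, followed by this one in all lists but Flt3-ITD and Flt3-ITD/Runx1-het, where the region at 37.3 kb (6.92 and 7.01) came next.

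H3K4me1 at Erg was strongest beside that acetylation, in chr16:95435513-95439648 in 4 lists and in chr16:95429219-95435334 with Runx1-het (11.5) and Flt3-ITD/NUP98-HOXD13 (9.24). The first of these reached 10.9, 11.75, 9.67, 11.2, 8.66 and 12.95 in the same order of genotypes, with all summits within 57 bp of each other. The upstream flank of the internal promoter, chr16:95460211-95461922, had H3K4me1 in all 5 mutants (4.56 to 6.67) and not in wild type. Of the 62 H3K4me1 regions of Erg, 3 showed this pattern, beside 2.17% of all H3K4me1 regions, and 3 of its 43 H3K27ac regions did too, beside 1.58% of all H3K27ac regions.

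Those 3 H3K27ac regions, all in introns, were chr16:95399344-95401133 (3.87 with Flt3-ITD, 3.11 with NUP98-HOXD13, 7.89 with Runx1-het, 4.70 with Flt3-ITD/NUP98-HOXD13 and 4.95 with Flt3-ITD/Runx1-het), chr16:95412353-95413250 (3.18 to 4.87) and chr16:95426209-95429085 (2.61 to 4.56). At a −log10 q of at least 5 they were in 3, 2 and 2 lists. The number of H3K27ac regions held at Erg varied little, with 18 in wild type, 20 with Flt3-ITD, 20 with NUP98-HOXD13, 18 with Runx1-het and 23 in each double mutant.

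**Figure D3:**
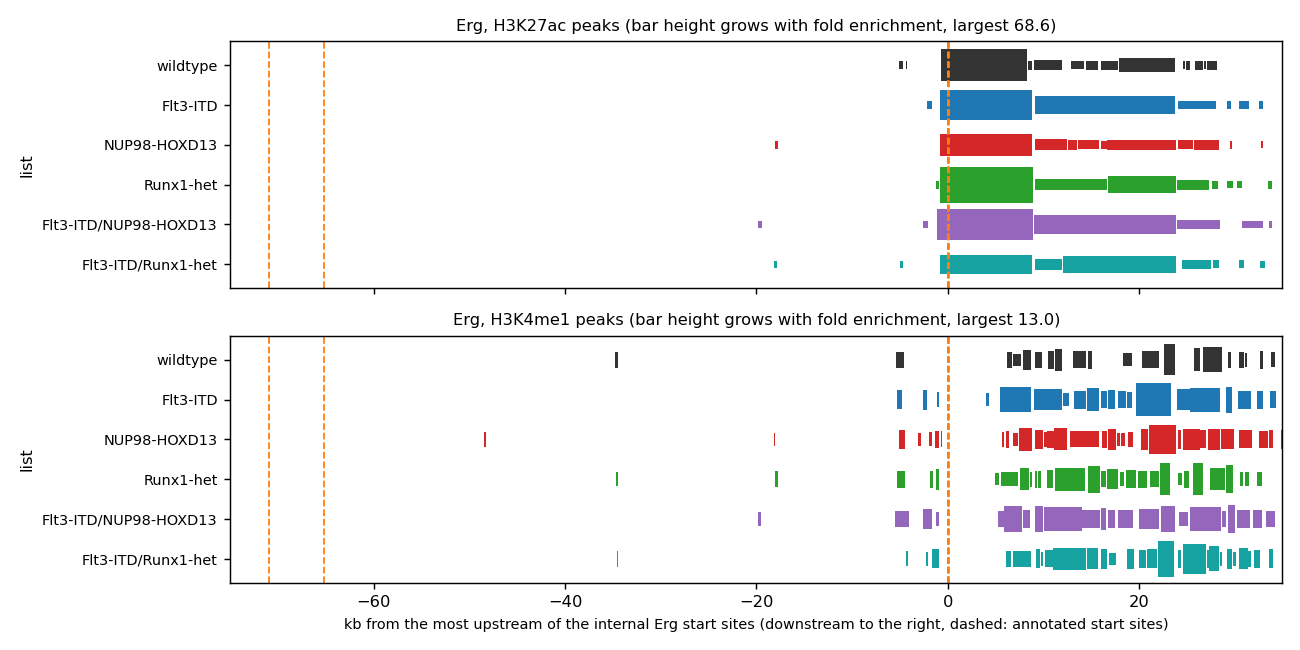
H3K27ac (upper) and H3K4me1 (lower) peaks of each list along Erg, by distance in kb from the most upstream internal start site, with annotated start sites dashed and bar height growing with the fold enrichment. The tall acetylated block at the internal start (59.3 in wild type) and the lower block reaching the +85 position are present in all 6 rows, and the start sites at the left have no H3K27ac bar.

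Fli1, the other ETS factor, had weak acetylation and was the gene with the largest difference in H3K27ac regions between wild type and the mutants. The gene lies at chr9:32422204-32542861 on the minus strand with 1 start site at 32541595. The start-site region chr9:32538484-32543322 had a fold enrichment of 5.66 in wild type, 10.1 with Flt3-ITD, 7.33 with NUP98-HOXD13, 8.37 with Runx1-het, 10.25 with Flt3-ITD/NUP98-HOXD13 and 10.47 with Flt3-ITD/Runx1-het. An intronic region 34.9 kb downstream, chr9:32498983-32512133, had 6.98, 7.65, 8.17, 7.65, 7.57 and 6.55. The intronic region stood above the start site in wild type and NUP98-HOXD13, and below it in the other 4 lists. No Fli1 peak reached the top 10% of H3K27ac peaks in any list.

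Further regions of Fli1 in all 6 lists lay 25.3 and 11.6 kb downstream of the start and at -14.2 kb. The region at 25.3 kb, chr9:32516045-32517704, had 7.31, 7.14, 6.88, 6.59, 7.31 and 4.59 in the same order of genotypes. The region at -14.2 kb, chr9:32554800-32556853, had 3.998, 7.14, 3.998, 5.50, 3.92 and 6.73, with summits within 404 bp of each other, near the position known as the Fli1 -15 enhancer. The region at 11.6 kb, next to the nominal +12 enhancer, stayed between 3.23 and 4.56. A region at -18.9 kb, chr9:32559300-32561487, was in every list but Flt3-ITD/NUP98-HOXD13 (5.99, 3.68, 3.48, 6.70 and 7.62 in the other 5).

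The 41 H3K27ac regions of Fli1 were held by wild type 28 times, Flt3-ITD 18, NUP98-HOXD13 10, Runx1-het 11, Flt3-ITD/Runx1-het 18 and Flt3-ITD/NUP98-HOXD13 11 times. Against wild type, Flt3-ITD gained 6 and lost 16, NUP98-HOXD13 gained 0 and lost 18, Runx1-het gained 1 and lost 18, Flt3-ITD/NUP98-HOXD13 gained 1 and lost 18, and Flt3-ITD/Runx1-het gained 5 and lost 15. Lost shares of 36.6 to 43.9% stood beside 18.9 to 21.3% of all regions. Of the lost regions 11 were in wild type alone, which is 26.8% of the Fli1 regions against 14.0% of all H3K27ac regions. Those 11 were short and weak, 145 to 936 bp wide (median 206) with fold enrichments of 2.69 to 5.33 (median 3.44).

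Covered length did not follow the count: peaks covered 18.9 kb of Fli1 in wild type, 28.3 with Flt3-ITD, 15.2 with NUP98-HOXD13, 20.1 with Runx1-het, 20.3 with Flt3-ITD/NUP98-HOXD13 and 22.7 with Flt3-ITD/Runx1-het. At a −log10 q of at least 5 wild type held 7 regions, and the gains and losses became 7 and 3 with Flt3-ITD, 0 and 4 with NUP98-HOXD13, 3 and 2 with Runx1-het, 1 and 3 with Flt3-ITD/NUP98-HOXD13 and 5 and 2 with Flt3-ITD/Runx1-het. With equal-length lists losses still outnumbered gains in all 5 mutants (4 and 7, 1 and 10, 2 and 8, 1 and 9, 3 and 9). At the stricter threshold losses thus outnumbered gains in the 2 NUP98-HOXD13 genotypes alone, on few regions. What part the weak or narrow peaks of the wild-type list had in the excess of losses was not tested.

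For H3K4me1 wild type held the fewest Fli1 regions in the lists as deposited. It held 29 of its 60 regions, Flt3-ITD 36, NUP98-HOXD13 36, Runx1-het 38, Flt3-ITD/Runx1-het 39 and Flt3-ITD/NUP98-HOXD13 38. Over all H3K4me1 regions the wild-type list held 32.5% and the mutant lists 41.7, 38.6, 32.0, 42.6 and 48.7%, in the order given above. With lists of equal length wild type held 30 Fli1 regions, Flt3-ITD 29 and NUP98-HOXD13 29, and gains no longer outnumbered losses in these mutants (8 and 9, 12 and 13). Of the 60 regions, 5 were in all 5 mutants and not in wild type, as were 2.17% of all H3K4me1 regions, among them chr9:32516131-32517684 (4.003 to 6.37), which overlies the acetylated region 25.3 kb downstream, and chr9:32543678-32544365 at -2.4 kb (3.41 to 5.51). Another intronic H3K4me1 region, chr9:32528294-32533061, was in every list with 7.80, 9.22, 6.70, 10.25, 7.86 and 7.97. At a −log10 q of at least 5 wild type held 19 regions, within the range of the mutants (9 to 22).

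**Figure D4:**
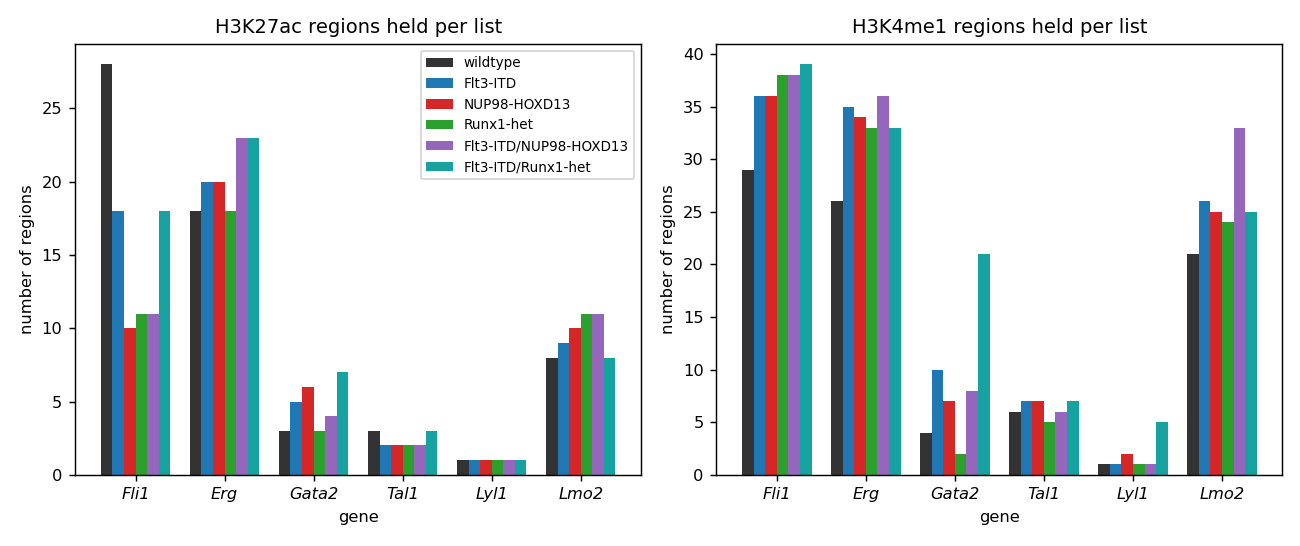
Number of merged regions of each gene that each list holds, for H3K27ac (left) and H3K4me1 (right), 1 bar per genotype. At Fli1 the wild-type bar is the tallest for H3K27ac (28) and the shortest for H3K4me1 (29), and at Gata2 the Flt3-ITD/Runx1-het bar stands out for H3K4me1 (21).

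Gata2, the GATA factor of stem and early progenitor cells, had H3K27ac within 1 kb of a start site in 3 of the 6 lists, where the other 5 genes had it at 1 or more of their start sites in all 6. It lies at chr6:88193891-88207032 on the plus strand with start sites at 88193891 and 88198334. The upstream start had no H3K27ac in any list. Within 1 kb of the second start H3K27ac was 5.001 in wild type, 6.02 with NUP98-HOXD13 and 5.87 with Flt3-ITD/NUP98-HOXD13 and absent from the other 3 lists. The region just downstream, chr6:88198632-88200361, was in the 4 lists without Runx1-het (5.001 in wild type, 3.18 with Flt3-ITD, 6.02 with NUP98-HOXD13, 5.87 with Flt3-ITD/NUP98-HOXD13) and in neither Runx1-het list, a pattern of 0.280% of all H3K27ac regions. With equal-length lists it was in 3 lists, and at a −log10 q of at least 5 in 2.

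An intronic region before the second start, chr6:88196936-88198180, near the nominal +3 position, was in NUP98-HOXD13 (3.37) and Flt3-ITD/NUP98-HOXD13 (3.63) and in no other list. It was weak, and no list held it at a −log10 q of at least 5. Upstream of the first start, the H3K4me1 region chr6:88192273-88193437 was in exactly the 3 genotypes with Flt3-ITD, at 5.34 with Flt3-ITD, 4.87 with Flt3-ITD/NUP98-HOXD13 and 5.74 with Flt3-ITD/Runx1-het, with summits within 151 bp of each other. It was in the same number of equal-length lists (3) and in 2 lists at a −log10 q of at least 5. Over all genes 0.855% of H3K4me1 regions were in those 3 lists and no other.

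The strong acetylation of Gata2 sat on an intragenic and an upstream element, both in all 6 lists, also at a −log10 q of at least 5, though the intragenic one was in 5 where a list had to cover 0.5 of it. The intragenic region chr6:88200472-88204080, next to the nominal +9.5 enhancer, had 11.5 in wild type, 6.45 with Flt3-ITD, 8.93 with NUP98-HOXD13, 7.41 with Runx1-het, 12.4 with Flt3-ITD/NUP98-HOXD13 and 4.12 with Flt3-ITD/Runx1-het. Its summits lay 8.49 to 9.22 kb from the first start. The upstream region chr6:88163629-88167663, at -27.9 kb, had 5.77, 10.4, 5.89, 4.24, 9.95 and 12.3 in the same order. The upstream element stood above the intragenic one in Flt3-ITD and Flt3-ITD/Runx1-het, and below it in the other 4 lists. No list had H3K27ac within 2 kb of the nominal -3.9, -2.8 or -1.8 positions counted from the first start, and 2 lists had a peak within 2 kb of the nominal -77 position, which lies outside the 50 kb rule.

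H3K27ac regions of Gata2 numbered 3 in wild type, 5 with Flt3-ITD, 6 with NUP98-HOXD13, 3 with Runx1-het, 4 with Flt3-ITD/NUP98-HOXD13 and 7 with Flt3-ITD/Runx1-het. H3K4me1 regions numbered 4, 10, 7, 2, 8 and 21 of 31. Flt3-ITD/Runx1-het gained 19 H3K4me1 regions against Runx1-het and lost 0, that is 61.3% of the Gata2 regions where 30.2% of all regions were gained, and 13 of the 31 Gata2 regions were in this list alone, as were 15.2% of all H3K4me1 regions. With equal-length lists it gained 12 and lost 1, and at a −log10 q of at least 5 it gained 2 and lost 1. The strongest H3K4me1 of Gata2, chr6:88146162-88147320, was in all lists but Runx1-het (5.76 in wild type, 6.59 with Flt3-ITD, 4.28 with NUP98-HOXD13, 5.61 with Flt3-ITD/NUP98-HOXD13 and 9.71 with Flt3-ITD/Runx1-het), and chr6:88183245-88184830 was missing from the same list.

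**Figure D5:**
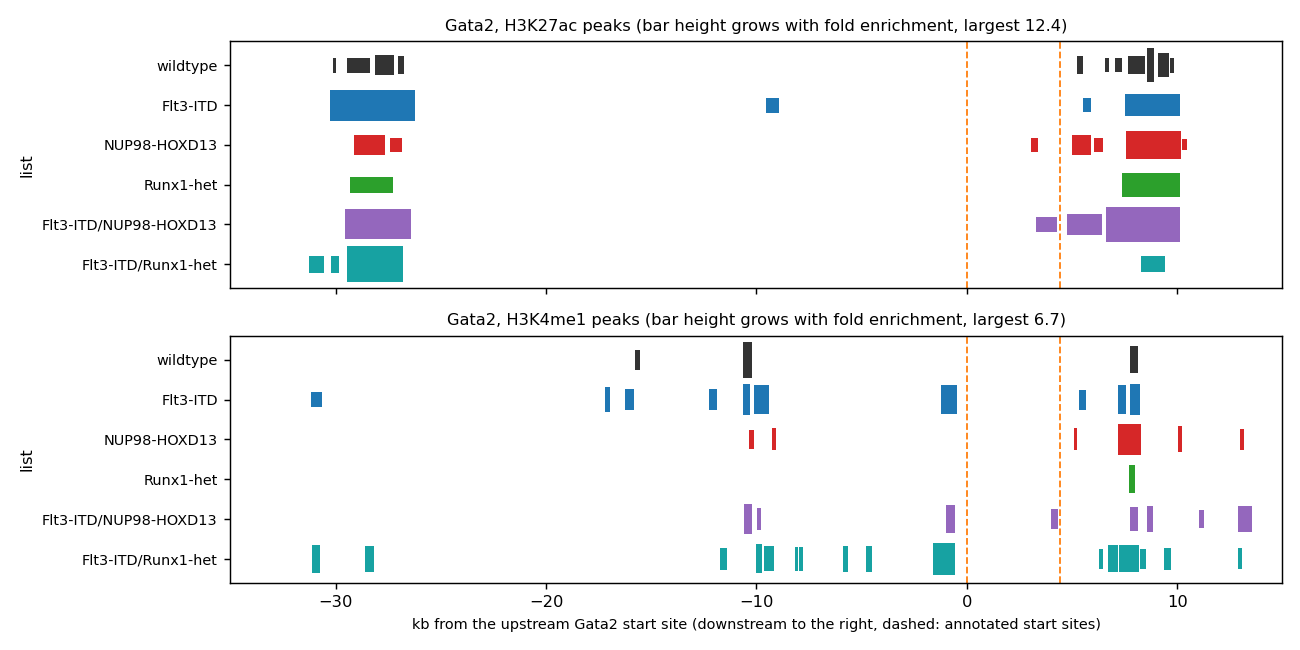
H3K27ac (upper) and H3K4me1 (lower) peaks of each list around Gata2, by distance in kb from the upstream start site, with both annotated start sites dashed and bar height growing with the fold enrichment. H3K27ac with summits near -27.9 kb and at 8.49 to 9.22 kb is in all 6 rows, the bar just after the second start is missing in both Runx1-het rows, and H3K4me1 just before the upstream start is in the 3 Flt3-ITD rows.

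Tal1, the basic helix-loop-helix factor at the head of blood stem cell specification, had H3K27ac at its promoter and at a downstream element in all 6 lists. It lies at chr4:115056426-115071755 on the plus strand with start sites at 115056426, 115057811 and 115059508. The start-site region chr4:115056540-115059757 had 9.61 in wild type, 14.35 with Flt3-ITD, 5.77 with NUP98-HOXD13, 14.8 with Runx1-het, 6.13 with Flt3-ITD/NUP98-HOXD13 and 11.0 with Flt3-ITD/Runx1-het, with summits within 103 bp. The region chr4:115062115-115063673, over a coding exon, had 5.001, 7.14, 4.63, 6.46, 4.33 and 10.1. The promoter stood above the downstream element in all 6 lists. At a −log10 q of at least 5 the promoter region was in 6 lists and the downstream element in 4, and where a list had to cover 0.5 of a region each was in 4. The other 2 H3K27ac regions of Tal1 were in 1 list each, 1 in wild type and 1 with Flt3-ITD/Runx1-het.

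The known +40 enhancer of Tal1, counted from the first start, carried H3K27ac in all 6 lists (5.33, 4.90, 3.74, 5.74, 4.70 and 3.61 in the usual order), with summits 3 to 188 bp from the nominal position. The +19 stem cell enhancer had a peak within 2 kb in 5 lists (5.55 in wild type, 4.33 with Flt3-ITD, 4.76 with NUP98-HOXD13, 5.64 with Runx1-het and 3.88 with Flt3-ITD/Runx1-het) and in Flt3-ITD/NUP98-HOXD13 none. Both positions are nearer to a start site of Pdzk1ip1 and so are outside the counts of Tal1 regions. The nominal -4 position, upstream of the first start, had H3K27ac within 2 kb in Flt3-ITD/Runx1-het (3.70) and in no other list. Of the 18 H3K4me1 regions of Tal1, 1 was in all 6 lists, chr4:115060390-115062699, at 5.82, 5.90, 5.41, 7.21, 4.02 and 6.55.

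Lyl1, the close relative of Tal1 that can partly replace it in adult stem cells, was the simplest locus. It lies at chr8:84701457-84704715 on the plus strand, and 1 H3K27ac region, chr8:84699401-84707816, covered the whole gene in the merged set. Its fold enrichment was 12.9 in wild type, 16.6 with Flt3-ITD, 12.6 with NUP98-HOXD13, 17.9 with Runx1-het, 16.2 with Flt3-ITD/NUP98-HOXD13 and 12.1 with Flt3-ITD/Runx1-het. These values stood between the percentiles 90.3 and 95.05 of their lists, and peaks covered 4.40 kb of the region in wild type and 6.73 to 8.28 kb in the mutants. An H3K4me1 region just upstream, chr8:84698403-84701243, was in all 6 lists (4.48 to 7.32). No comparison gained or lost an H3K27ac region at Lyl1.

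The bases before the first Tal1 start and the Lyl1 start are printed because both starts have H3K27ac within 1 kb in every genotype (GRCm38.p6, RefSeq, plus strand; chr4:115056176-115056425 and chr8:84701207-84701456). Capitals mark the same motif letters as at Erg.
Tal1 promoter: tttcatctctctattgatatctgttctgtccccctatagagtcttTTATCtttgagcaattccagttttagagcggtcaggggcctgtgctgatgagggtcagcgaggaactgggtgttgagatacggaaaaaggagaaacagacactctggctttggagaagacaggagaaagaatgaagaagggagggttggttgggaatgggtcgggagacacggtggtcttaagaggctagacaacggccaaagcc
Lyl1 promoter: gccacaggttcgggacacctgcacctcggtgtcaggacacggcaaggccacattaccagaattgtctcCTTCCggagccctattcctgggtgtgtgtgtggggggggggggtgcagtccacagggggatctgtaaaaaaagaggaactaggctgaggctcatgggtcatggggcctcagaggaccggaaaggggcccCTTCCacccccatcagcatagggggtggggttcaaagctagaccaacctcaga
The Tal1 stretch holds 1 GATA match 205 bases before the start. The Lyl1 stretch holds 2 ETS matches, 182 and 53 bases before the start. Neither stretch holds the E-box or RUNX letters. The table held promoters for 4 of the 6 genes, and the Gata2 stretch before the upstream start, which has no H3K27ac, held none of the 5 motifs.

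Lmo2, the bridging cofactor, had strong acetylation spread over its upstream enhancers and its proximal promoter. The gene lies at chr2:103957986-103981878 on the plus strand, with a distal start at 103957995 and proximal starts at 103970129, 103970223 and 103970244. The widest region, chr2:103928540-103948627, spanned 20088 bp upstream of the distal start. It reached 33.0 in wild type, 39.3 with Flt3-ITD, 31.7 with NUP98-HOXD13, 38.7 with Runx1-het, 37.95 with Flt3-ITD/NUP98-HOXD13 and 28.3 with Flt3-ITD/Runx1-het. A second upstream region, chr2:103900224-103909296, had 21.7, 35.2, 23.3, 31.4, 25.0 and 26.1. The proximal start sites lay in chr2:103966664-103975469, with 22.9, 18.6, 20.2, 20.7, 27.6 and 12.3.

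Within every list the wide upstream region was the strongest of Lmo2. The proximal promoter stood below the second upstream region in Flt3-ITD, NUP98-HOXD13, Runx1-het and Flt3-ITD/Runx1-het, and above it in wild type and Flt3-ITD/NUP98-HOXD13. Counted from the start at 103970244, the second upstream region had its summits at -62.9 to -63.4 kb, 643 to 1102 bp from the nominal -64 enhancer. The wide region covered the nominal -35 and -25 enhancers. A summit lay within 105 bp of the -25 position in wild type (33.0), Flt3-ITD (39.3), Runx1-het (31.5) and Flt3-ITD/Runx1-het (28.3). In NUP98-HOXD13 and Flt3-ITD/NUP98-HOXD13 a single peak spanned both positions, with its summit at -34.8 and -33.8 kb. The summit near -35 stood above that near -25 with Runx1-het (38.7) and below it in wild type (26.1), Flt3-ITD (36.7) and Flt3-ITD/Runx1-het (15.6).

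The distal Lmo2 start had a weak H3K27ac peak in wild type (3.34), Flt3-ITD/Runx1-het (3.17) and Flt3-ITD/NUP98-HOXD13 (3.46) and none in the other 3 lists. An intronic region between the distal and proximal starts, chr2:103962499-103963541, was in all 5 mutants (3.36 with Flt3-ITD, 3.02 with NUP98-HOXD13, 4.31 with Runx1-het, 3.79 with Flt3-ITD/NUP98-HOXD13 and 3.70 with Flt3-ITD/Runx1-het) and not in wild type, and in no list at a −log10 q of at least 5. Lmo2 H3K27ac regions numbered 8, 9, 10, 11, 11 and 8 of 24 in the usual order, and H3K4me1 regions 21, 26, 25, 24, 33 and 25 of 51. Of the H3K4me1 regions 12 were in all 6 lists, including chr2:103966936-103968882 just before the proximal starts (9.46, 6.12, 7.34, 10.1, 6.63 and 6.23). The H3K4me1 regions held by the 3 Flt3-ITD lists and no other were 2 at Lmo2 and the 1 at Gata2 described above.

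Counted by any overlap in the lists as deposited, H3K4me1 peaks of the 6 genes carried H3K27ac more often than H3K4me1 peaks at large. The share of them overlapping an H3K27ac peak of the same genotype was 45.9% in wild type (67 of 146, 95% Wilson interval 38.0 to 54.0), 51.1% with Flt3-ITD, 40.3% with NUP98-HOXD13, 47.95% with Runx1-het, 44.0% with Flt3-ITD/NUP98-HOXD13 and 45.3% with Flt3-ITD/Runx1-het. Over all H3K4me1 peaks it was 26.1, 31.9, 29.9, 29.9, 32.8 and 29.6%. Such intervals cover counting error only. At Fli1 the share was 42.9% in wild type (24 of 56), 50% with Flt3-ITD (32 of 64), 22.4% with NUP98-HOXD13 (17 of 76), 30.9% with Runx1-het (21 of 68), 27.7% with Flt3-ITD/NUP98-HOXD13 (18 of 65) and 33.3% with Flt3-ITD/Runx1-het (27 of 81). The Fli1 share lay below that of all H3K4me1 peaks in both NUP98-HOXD13 genotypes. Its intervals there contained the share of all peaks (14.5 to 32.9 with NUP98-HOXD13, 18.3 to 39.6 with Flt3-ITD/NUP98-HOXD13). At Erg the share stayed between 51.2 and 61.8% and at Lmo2 between 51.2 and 62.2%. At Tal1 it lay below that of all H3K4me1 peaks in every list (12.5, 12.5, 0, 0, 0 and 22.2% in the usual order), on 5 to 9 peaks per list. The Tal1 intervals contained the share of all peaks in every list.

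The list of 20 partners, cofactors and targets of the heptad showed promoter H3K27ac for 14 genes in wild type and 16 in each mutant. Of all protein-coding genes, 39.4% had it in wild type, 43.0% with Flt3-ITD, 45.2% with NUP98-HOXD13 and 39.4% with Runx1-het. With Flt3-ITD/NUP98-HOXD13 45.5% did, and with Flt3-ITD/Runx1-het 46.2%. Cbfa2t3, a corepressor of TAL1 complexes, had its promoter peak in all 5 mutants (12.5 with Flt3-ITD, 8.55 with NUP98-HOXD13, 8.48 with Runx1-het, 6.72 with Flt3-ITD/NUP98-HOXD13 and 6.73 with Flt3-ITD/Runx1-het) and not in wild type. Zfpm1, the GATA cofactor FOG1, did so too (5.42, 4.76, 6.22, 5.22 and 7.09). Neither gene was looked at under the stricter settings. How many of all protein-coding genes had this pattern was not counted, so no background stands beside it. Runx1, Cbfb, Ldb1, the E proteins Tcf3, Tcf4 and Tcf12, Ssbp2, Ssbp3, Spi1, Gfi1, Etv6, Hhex, Meis1 and Nfe2 had a promoter peak in all 6 lists. Gata1, Gfi1b, Smad6 and Procr had one in none. Of the 441 H3K27ac regions of these genes, Flt3-ITD gained 72 against wild type (16.3%, all regions 17.2%) and lost 63 (14.3%, all regions 18.9%). NUP98-HOXD13 gained 58 (13.2%, all regions 14.5%) and lost 85 (19.3%, all regions 20.5%), and Runx1-het gained 78 (17.7%, all regions 14.0%) and lost 77 (17.5%, all regions 21.3%). Flt3-ITD/NUP98-HOXD13 gained 80 (18.1%, all regions 16.6%) and lost 64 (14.5%, all regions 19.5%), and Flt3-ITD/Runx1-het gained 117 (26.5%, all regions 22.3%) and lost 72 (16.3%, all regions 19.2%). These shares lay within 6 percentage points of the background.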

How the data were processed

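H3K27ac and H3K4me1 were measured by ChIPmentation in 39 samples of 6 genotypes, grouped by the genotype and mark in the labels, and the input sample was not analysed here. The submitters' processing notes name BWA, MACS2 and mm10 (GRCm38). Versions, settings and the threshold applied before deposit: not given in the sources used here. Deposited lists kept 39.3 to 70.6% (H3K27ac) and 52.0 to 68.1% (H3K4me1) of the peaks that their numbering implies. The authors deposited 12 lists, 1 per group, pooled over its samples. Each deposited peak has a score of at most 1000, a ratio (fold enrichment over control), the −log10 p, the −log10 q and a summit position (other). Depth is unknown, so no precision from counts is given.

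Peaks of a mark were merged at 1 bp overlap, and a list held a region it overlapped. Gene bodies and 41433 start sites of 21827 protein-coding genes came from the GENCODE mouse release 21 basic annotation, which is on the build of the lists. Regions were assigned within 50 kb, promoters taken as 1 kb around starts, and elements searched within 2 kb. There are 7 comparisons per mark. Without values per sample no test or p-value was computed; shares have 95% Wilson intervals. Regions were named by a fixed rule: those over a start site, the 3 with the highest fold enrichment per gene and mark, those following a genotype, and those near known enhancers. Enhancer positions are nominal distances from a start site, entered from general knowledge. The genes, lists and comparisons were chosen with earlier results of these data known. Columns of per-sample values without a sample numbered 0. Counting was tested on simulated data with known changes. Python 3.11.15, pandas 2.3.3 and numpy 2.4.6 were used. Alternatives were equal-length lists, a −log10 q of at least 5, coverage of at least 0.5, direct merging of 2 lists, a 100 kb reach, gene bodies alone, 2 kb promoters and H3K27ac summits; merging without wild type and leaving out Fli1 were added after seeing the data.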

Additional observations from a re-analysis of the deposited data

Results flagged for a closer look

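The change with Flt3-ITD went opposite ways in different backgrounds at 2 genes in the lists as deposited, counted as H3K27ac regions gained minus regions lost; the difference was not tested, since each group is 1 pooled list. At Fli1 the balance was -10 on wild type, 1 on NUP98-HOXD13 and 7 on Runx1-het. All H3K27ac regions went the same ways as Fli1. Over them Flt3-ITD gained 12278 and lost 13540 on wild type, 9213 and 7005 on NUP98-HOXD13, and 16301 and 8898 on Runx1-het. At Gata2 it was 2 on wild type, -2 on NUP98-HOXD13 and 4 on Runx1-het. At Fli1 the opposite directions were lost at a −log10 q of at least 5, where gains outnumbered losses on wild type (7 and 3), on NUP98-HOXD13 (2 and 0) and on Runx1-het (4 and 2). With lists of equal length gains and losses were 4 and 7 on wild type, 3 and 2 on NUP98-HOXD13 and 5 and 5 on Runx1-het. At Gata2 the stricter q left 1 gained and 0 lost on wild type, 0 and 1 on NUP98-HOXD13 and 3 and 0 on Runx1-het.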

How the results depend on the processing

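No paired analysis was possible because the lists are pooled over the samples of a group, and for the same reason no replicate could be left out. Of 210 values under other settings that answer a comparison, 151 stayed on their side of 50% within the interval or within 1.5 times the count, 37 moved and 22 reversed; of 1941 others 579 moved. Shares below are gains among all gained and lost regions.

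With lists cut to equal length the H3K27ac share against wild type reversed to 56.4% with Flt3-ITD, 53.8% with Runx1-het, 56.4% with Flt3-ITD/NUP98-HOXD13 and 51.2% with Flt3-ITD/Runx1-het, and that of Flt3-ITD/Runx1-het against Runx1-het to 47.2%. For H3K4me1 it became 54.3% with NUP98-HOXD13, 60.6% with Flt3-ITD/NUP98-HOXD13 and 58.0% with Flt3-ITD/Runx1-het, and 44.4% with Flt3-ITD/Runx1-het against Runx1-het. This setting drops peaks from every list but the shortest of a mark.

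At a −log10 q of at least 5 the H3K27ac shares against wild type were 82.6% with Flt3-ITD, 80.0% with Runx1-het, 64.3% with Flt3-ITD/NUP98-HOXD13 and 73.7% with Flt3-ITD/Runx1-het, and the double mutants had 76.9% against NUP98-HOXD13 and 50% against Runx1-het. For H3K4me1 they were 17.1% with NUP98-HOXD13 and 51.4% with Flt3-ITD/Runx1-het, and 90.2% and 45.1% for the double mutants against NUP98-HOXD13 and Runx1-het. At this q the NUP98-HOXD13 list kept 6884 H3K4me1 peaks, the wild-type list 25000 and the others 19731 to 24055. H3K4me1 then covered 52.4 kb in wild type, 84.2 with Flt3-ITD, 40.1 with NUP98-HOXD13, 68.8 with Runx1-het, 87.7 with Flt3-ITD/NUP98-HOXD13 and 57.6 with Flt3-ITD/Runx1-het. Genes with promoter H3K4me1 fell to 0 with NUP98-HOXD13, 1 with Runx1-het, 1 with Flt3-ITD/NUP98-HOXD13 and 3 with Flt3-ITD/Runx1-het. H3K4me1 peaks with H3K27ac rose to 59.2% with Flt3-ITD, 57.6% with NUP98-HOXD13 and 55.9% with Flt3-ITD/Runx1-het.

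Where a list had to cover 0.5 of a region, H3K27ac shares against wild type were 60.3% with Flt3-ITD, 53.1% with Runx1-het, 52.7% with Flt3-ITD/NUP98-HOXD13 and 60.0% with Flt3-ITD/Runx1-het, and H3K4me1 peaks with H3K27ac were 34.2% in wild type, 42.4% with Flt3-ITD, 30.1% with NUP98-HOXD13 and 37.7% with Flt3-ITD/Runx1-het. Merging only the pair compared gave 54.4% with Flt3-ITD/Runx1-het against wild type. With gene bodies alone H3K27ac covered 69.2 kb in NUP98-HOXD13, 77.3 with Runx1-het and 76.3 with Flt3-ITD/Runx1-het, H3K4me1 90.1 with Flt3-ITD and 76.8 with Flt3-ITD/Runx1-het, and the H3K4me1 share against Runx1-het was 54.3%. Promoters of 2 kb gave 4 genes with H3K4me1 with Runx1-het. Counting H3K27ac summits gave 24.7% in wild type, 23.4% with Flt3-ITD, 18.9% with NUP98-HOXD13, 21.6% with Runx1-het, 20.1% with Flt3-ITD/NUP98-HOXD13 and 18.6% with Flt3-ITD/Runx1-het.

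Leaving out Fli1, the gene with the most H3K27ac losses against wild type, was chosen after seeing the data. It gave H3K27ac shares against wild type of 56.7% with Flt3-ITD, 58.8% with NUP98-HOXD13, 53.1% with Runx1-het, 62.5% with Flt3-ITD/NUP98-HOXD13 and 63.6% with Flt3-ITD/Runx1-het. Where not stated, the cause was not tested. Depth is unknown, so a missing peak does not show that a mark is absent.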
